A study of Mus musculus with 9 samples.

Results

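The comparison described here is that of the corpus with the caput of the mouse epididymis in whole-tissue sums of single-cell RNA-seq libraries. Its members are 6 of the 9 libraries of the series, the caput and the corpus of 3 pools of mice, and every barcode of a library that had 300 to 4000 detected genes, at most 20000 unique molecular identifiers (UMIs), under 50% mitochondrial UMIs and under 20% globin UMIs was summed. This left 27109 of the 29903 deposited barcodes of the 6 libraries. All mice were untreated and labelled C57BL/6, which the study's methods give as C57BL/6J, and the labels name no allele or agent for any group, and a pool joined the epididymides of 5 mice. One pool was taken at 42 days of age (P42) and 2 pools at 56 days (P56 pool 1 and P56 pool 2). The caput and the corpus of a pool came from the same mice and were compared within the pool, for nuclear genes only.

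The epididymis is a single coiled duct in which sperm that leave the testis mature while they pass from the caput through the corpus to the cauda. Its principal cells secrete most of the proteins of the luminal fluid, clear and narrow cells acidify it, and basal cells lie below them. Each stretch of the duct has its own secretory programme, and the caput, with the initial segment at its start, depends on factors from the testis and on androgen.

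The kept barcodes numbered between 4053 and 4874 per library. The caput libraries held 27180295 to 32722123 nuclear UMIs and the corpus libraries 16438118 to 20689605, and the median per barcode was 5859 to 6451 UMIs in the caput and 3485 to 4927 UMIs in the corpus. Mitochondrial UMIs, which were left out of the comparison, made up 6.52% to 6.89% of the UMIs in the caput and 14.9% to 23.1% in the corpus. A caput and a corpus library of the same pool shared at most 15 barcodes (0.37%). Levels are given as CPM, the UMIs of a gene per 1000000 nuclear UMIs of its library after scaling by trimmed means (TMM), always in the order P42, P56 pool 1 and P56 pool 2. They compare libraries and not genes with each other per transcript length. In sums over a tissue, fewer cells of a type and less RNA per cell cannot be told apart.

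The segments differed widely. Of 17574 genes tested by edgeR with the pool as a block, 3647 (20.8%) were called, that is, their log2 fold change was 1 or more in size with p, adjusted by Benjamini and Hochberg, below 0.05. Of all genes tested, 1943 (11.1%) were called higher in the corpus and 1704 (9.7%) higher in the caput. The direction was shared by the 3 pools in 3646 of the called genes. The 3 caput and 3 corpus values did not overlap for 3328 called genes, and for 39.8% of all genes tested. Changes of at least 3 on the log2 scale were seen in 980 called genes, 490 in each direction, while the median over all genes tested was 0.03. Without P56 pool 1 the count fell to 1640 genes (780 higher in the corpus and 860 in the caput), and without the P42 pool it was 4911 (2356 and 2555).

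**Figure D1:**
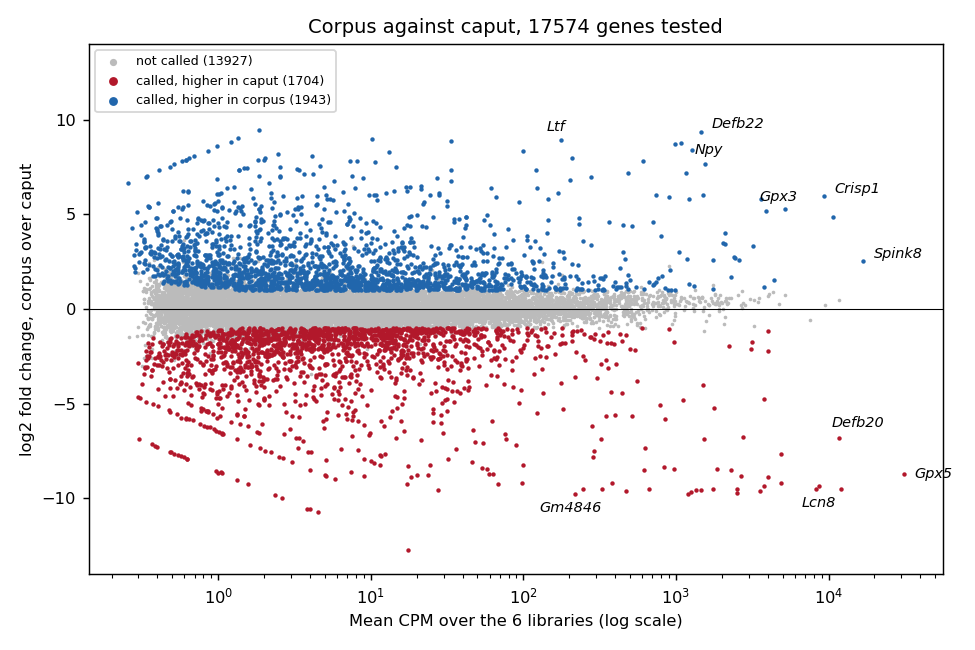
Mean CPM over the 6 libraries (log scale) against the log2 fold change of the corpus over the caput for each of the 17574 genes tested, with genes called higher in the caput in red, genes called higher in the corpus in blue and other genes in grey. The called genes reach to both sides at every level, and Gpx5, at a log2 fold change of -8.71, has the highest mean level of the genes called in the caput.

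These genes held a large part of the RNA. The genes called higher in the caput took 26.3%, 39.8% and 33.8% of the nuclear UMIs of the caput libraries, and 2.79%, 2.64% and 1.90% in the corpus. Those called higher in the corpus took 19.2%, 29.2% and 29.3% of the corpus UMIs and between 4.14% and 4.69% of the caput UMIs. As the genes were chosen on the same libraries, these shares describe the libraries and are no test. The share that a segment's own genes took was lowest at P42 in both segments.

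The promoters of 4 genes that the account below turns on are shown here, because they stand for the contrasts in it. Defb20 and Defb22 are neighbouring beta-defensin genes that changed in opposite directions, Lcn9 is a lipocalin of the caput and Crisp1 a secreted protein of the corpus that binds to sperm. Each run covers 250 bases before and 50 bases after the annotated start and is read 5′ to 3′ on the strand of the gene (RefSeq, GRCm38.p6). Capitals mark the letters of 3 motifs, the hexamer AGAACA of androgen response elements on either strand, the core GGAAGT bound by ETS factors on either strand, and TATAAA on the strand of the gene. Of 27025 genes with a listed promoter of the same length, 19.02% hold AGAACA, 24.1% hold GGAAGT and 8.88% hold TATAAA.
Defb20 (chr2:152476813-152477112, plus strand): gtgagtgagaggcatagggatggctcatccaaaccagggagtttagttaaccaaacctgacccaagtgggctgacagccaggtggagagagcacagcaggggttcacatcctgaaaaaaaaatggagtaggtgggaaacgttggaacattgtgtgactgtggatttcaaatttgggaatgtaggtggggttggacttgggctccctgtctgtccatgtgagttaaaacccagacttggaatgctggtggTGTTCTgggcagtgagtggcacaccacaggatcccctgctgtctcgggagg
Defb22 (chr2:152490089-152490388, minus strand): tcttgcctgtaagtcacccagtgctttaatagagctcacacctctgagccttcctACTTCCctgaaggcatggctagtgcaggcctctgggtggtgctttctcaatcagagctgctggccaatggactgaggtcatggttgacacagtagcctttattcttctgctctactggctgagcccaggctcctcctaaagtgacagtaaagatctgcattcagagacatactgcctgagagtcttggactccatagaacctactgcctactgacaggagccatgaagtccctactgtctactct
Lcn9 (chr2:25822903-25823202, plus strand): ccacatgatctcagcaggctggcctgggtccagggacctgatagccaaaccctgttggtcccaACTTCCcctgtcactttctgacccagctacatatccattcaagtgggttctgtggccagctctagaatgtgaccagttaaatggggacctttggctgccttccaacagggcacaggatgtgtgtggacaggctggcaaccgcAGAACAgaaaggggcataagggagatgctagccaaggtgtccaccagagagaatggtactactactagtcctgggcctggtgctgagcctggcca
Crisp1 (chr17:40319158-40319457, minus strand): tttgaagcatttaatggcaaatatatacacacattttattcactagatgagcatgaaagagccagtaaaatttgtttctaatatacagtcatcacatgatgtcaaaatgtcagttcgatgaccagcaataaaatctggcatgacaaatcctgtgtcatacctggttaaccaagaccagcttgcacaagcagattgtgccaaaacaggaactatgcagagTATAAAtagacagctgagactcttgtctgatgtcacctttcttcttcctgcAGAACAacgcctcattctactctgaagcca
The Defb20 promoter holds AGAACA as its reverse complement, the Defb22 promoter holds GGAAGT as its reverse complement, the Lcn9 promoter holds both motifs, and the Crisp1 promoter holds TATAAA and AGAACA. A match describes the letters only and was not tested for binding.

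The genes with the highest levels among those called in the caput included Gpx5 and Spag11b. Gpx5, a secreted glutathione peroxidase that protects sperm from oxidation, was at 28660, 92266 and 65919 CPM in the caput and at 111, 320 and 63.4 CPM in the corpus. Every caput library was far above every corpus library (log2 fold change -8.71, SE 0.665, adjusted p = 0.000766). Spag11b, a beta-defensin-like sperm-associated antigen, stood at 13672, 36450 and 22416 CPM against 34.2, 52.9 and 15.4 CPM, a log2 fold change of -9.51 (SE 0.569, adjusted p = 0.000361). Teddm1a, which encodes an epididymal membrane protein, was at 3235, 7227 and 4705 CPM and at 7.18, 8.43 and 2.96 CPM in the corpus (-9.69). Adam28, a member of the ADAM family of membrane proteases, fell from 2612, 4308 and 3499 CPM to 6.56, 6.19 and 2.25 CPM (-9.50). Among called genes with a mean over 100 CPM the largest fitted drop was that of the predicted gene Gm4846, with 339, 556 and 417 CPM against 0.67, 0.747 and 0.0549 CPM (-9.78). For each of these genes the P42 caput was the lowest of the caput libraries, at a level that was still above all corpus libraries.

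Lipocalins, small carriers of lipids, were all on the caput side. Of 9 listed members 8 were tested, and all 8 were called higher in the caput, beside 9.7% of all genes. Their median log2 fold change was -8.05 against 0.03 over all genes. The member Lcn3 had no UMI in the corpus and was at least 18.3-fold higher in the caput by a floor of 3 counts over the corpus libraries. With Lcn3 at that bound the median was -6.64. Lcn8 was at 8874, 22932 and 17896 CPM in the caput and at 23.4, 28.8 and 13.6 CPM in the corpus (-9.52, SE 0.541, adjusted p = 0.000324). Lcn9 had 10000, 24223 and 18026 CPM against 29.7, 39.3 and 13.4 CPM (-9.34). Lcn2, which binds bacterial siderophores and with them iron, kept more, at 326, 250 and 223 CPM after 5715, 8904 and 7084 CPM in the caput (-4.76). Lcn5, a carrier of retinoids, changed least clearly of the abundant members. Its values were 1897, 6196 and 6086 CPM in the caput and 929, 3017 and 664 CPM in the corpus, so that the segments overlapped (-1.72, adjusted p = 0.0465). DESeq2 did not call Lcn5, and without P56 pool 1 only 5 of the 8 members were called, Lcn3 not among them.

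Cystatins, inhibitors of cysteine proteases, were either higher in the caput or not called. Of 14 members tested, 8 were called higher in the caput, none in the corpus and 6 not called, with a median of -4.57. Over all genes 9.7% were called in the caput and 11.1% in the corpus. Cst11 was at 5193, 9290 and 6886 CPM in the caput and at 12.5, 13.0 and 3.95 CPM in the corpus (-9.60, SE 0.563, adjusted p = 0.000345). Cst8 followed with 5558, 10210 and 8347 CPM against 19.2, 22.9 and 10.3 CPM (-8.87). The widely used Cst3, or cystatin C, had 878, 874 and 784 CPM in the caput and 743, 576 and 590 CPM in the corpus and was not called (-0.42, adjusted p = 0.0905). All 3 Teddm genes tested were called higher in the caput, between -7.20 and -9.69.

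The genes that replaced them in the corpus belonged to other families or to other members of the same ones. Crisp1, which binds to sperm and to the egg surface, was at 95.6, 364 and 469 CPM in the caput and rose to 6520, 23502 and 25039 CPM in the corpus. All corpus libraries were far above all caput libraries (log2 fold change 5.95, SE 0.285, adjusted p = 0.000206). Spink8, a Kazal type protease inhibitor, had the highest mean level of the genes called in the corpus, with 12775, 37601 and 36318 CPM in the corpus, but it was already at 2743, 5761 and 5810 CPM in the caput (2.52, SE 0.280, adjusted p = 0.0025), and it was not called without P56 pool 1. Cd52, a glycopeptide that sperm take up in the duct and that lymphocytes also make, rose from 305, 842 and 922 CPM to 8330, 25419 and 28498 CPM (4.88). Gpx3, another secreted glutathione peroxidase, rose from 202, 166 and 230 CPM to 3967, 8342 and 10516 CPM (5.16, SE 0.380, adjusted p = 0.000711), while Gpx5 fell. Ltf, the iron-binding lactotransferrin, was under 1 CPM in each caput library and at 204, 287 and 572 CPM in the corpus (8.92, SE 0.298, adjusted p = 8.55e-05). Npy, the precursor of neuropeptide Y, rose from 7.08, 16.2 and 17.8 CPM to 1076, 3566 and 4614 CPM (7.69). In each of these 6 genes the P42 corpus was the lowest corpus library.

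**Figure D2:**
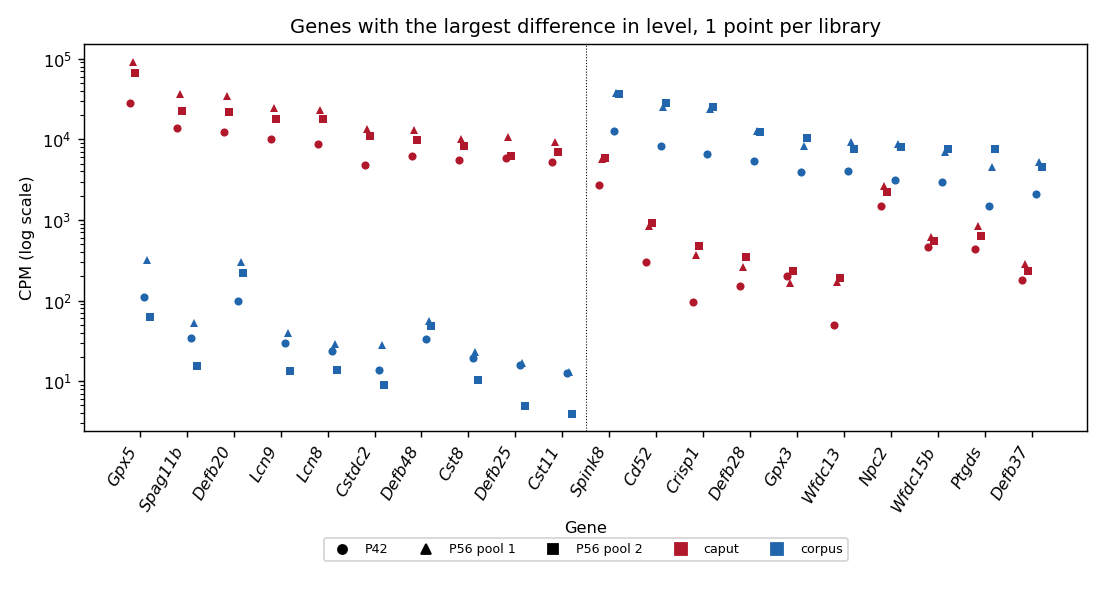
CPM on a log scale for the 10 genes with the largest difference of the segment means in each direction, left and right of the dotted line, with 1 point per library, caput in red, corpus in blue, and circles, triangles and squares for the P42 pool, P56 pool 1 and P56 pool 2. The caput points of Gpx5 lie between 28660 and 92266 CPM and its corpus points between 63.4 and 320 CPM, and the P42 points are the lowest of their segment for most genes with high levels.

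The beta-defensins, small cationic peptides of innate defence of which many coat sperm, changed in both directions. Of 40 members 37 were tested, 15 of which were called higher in the corpus and 16 higher in the caput, so that the median was 0.02. Over all genes 11.1% were called in the corpus and 9.7% in the caput. Defb22, whose product coats the sperm surface, was at 1.13, 3.81 and 12.5 CPM in the caput and at 1250, 3776 and 3724 CPM in the corpus (9.36, SE 0.546, adjusted p = 0.00034). Defb38 had 4.19, 8.42 and 9.91 CPM against 1403, 3189 and 3064 CPM (8.41). Defb20 went the other way, from 12483, 34765 and 22028 CPM to 99.8, 301 and 221 CPM (-6.82, SE 0.307, adjusted p = 0.000166). Defb25 fell from 5841, 10720 and 6140 CPM to 15.8, 16.9 and 4.94 CPM (-9.34). The widely expressed Defb1 had 299, 199 and 307 CPM in the caput and 247, 283 and 277 CPM in the corpus, and the segments overlapped (0.02, adjusted p = 0.933). As these peptides are short and related in sequence, reads of close copies could be divided between them by the counting.

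Protease inhibitors outside the cystatins had members called in both segments. Of 20 genes tested in the whey acidic protein list, 12 were higher in the corpus and 3 in the caput (median 2.00). That list also takes in seminal vesicle secretory genes, of which Svs4 and Svs6 were called in the corpus. Both were low, with mean levels of 1.20 and 1.58 CPM there. Of 14 Kazal and Kunitz type genes 6 were called in the corpus and 3 in the caput (median -0.15). The whey acidic protein Wfdc13 rose from 49.1, 169 and 190 CPM to 4072, 9379 and 7691 CPM (5.83, SE 0.317, adjusted p = 0.000284). Spint3, with a Kunitz domain, rose from 25.0, 48.6 and 49.3 CPM to 1115, 3722 and 4036 CPM (6.03). Spink12 and Spink2, both Kazal type, fell by 2.14 and by 2.7 on the log2 scale. Wfdc10 was abundant in both segments, at 2664, 5164 and 3424 CPM and at 3273, 8412 and 8175 CPM, and was not called (0.75, adjusted p = 0.079). Of 24 serpins tested 6 were called in the corpus and 1 in the caput, 6 and 2 without the P42 pool, and 4 and 2 with barcodes rich in non-epithelial markers left out. Over all genes 11.1% were called in the corpus and 9.7% in the caput. Serpina16 rose from 19.7, 28.5 and 33.5 CPM to 856, 2008 and 2468 CPM (5.93), and Serpinf2, which encodes alpha-2-antiplasmin, had 44.6, 51.6 and 30.8 CPM against 0.191, 0.747 and 0.165 CPM (-6.90). Without P56 pool 1, 7 genes of the whey acidic protein list were called in the corpus and 2 in the caput, and 2 and 3 Kazal and Kunitz type genes. The latter counts were 6 and 5 without the P42 pool.

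Of 13 tested proteins that bind to the sperm surface 5 were called in each segment, beside 11.1% and 9.7% of all genes. Bsph2, a homologue of the binder of sperm proteins, rose from 2.17, 4.46 and 6.97 CPM to 779, 2553 and 2596 CPM (8.73, SE 0.270, adjusted p = 8.55e-05). Its relative Bsph1 was at 64.9, 172 and 132 CPM in the caput and at 1.34, 5.92 and 0.329 CPM in the corpus (-5.89). Npc2, a carrier of cholesterol in the luminal fluid, rose from 1501, 2632 and 2226 CPM to 3115, 8713 and 7982 CPM (1.54, adjusted p = 0.00803), and clusterin (Clu), a chaperone of the lumen, fell from 2885, 4290 and 3250 CPM to 921, 1461 and 529 CPM (-1.94). Of this list only 2 genes were called in the corpus and 3 in the caput without P56 pool 1, when Npc2 lost its call.

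The Pate, Ly6 and Lypd genes encode small surface proteins with a three-finger fold, with 8 called in the corpus and 10 in the caput of 29 tested. Pate1 rose from 1.7, 4.7 and 9.94 CPM to 985, 2837 and 2658 CPM (8.80, SE 0.375, adjusted p = 0.000152), and Ly6f from 3.4, 4.21 and 8.0 CPM to 540, 1263 and 1834 CPM (7.79). Pate5 had 3285, 6651 and 5170 CPM in the caput and 8.57, 9.44 and 3.46 CPM in the corpus (-9.49), and Ly6g5c 1763, 3594 and 2767 CPM against 3.16, 6.88 and 1.54 CPM (-9.57). In the ribonuclease A family 3 of 9 were called in the corpus and 2 in the caput, beside the 11.1% and 9.7% of all genes. Rnase10, needed for sperm to bind the egg coat, fell from 2179, 3820 and 2744 CPM to 5.31, 5.17 and 1.59 CPM (-9.57), whereas Rnase9 had 743, 2557 and 2982 CPM and 878, 3217 and 1911 CPM with overlapping segments (-0.02, adjusted p = 0.957). Without P56 pool 1 only 1 ribonuclease was called in the corpus.

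**Figure D3:**
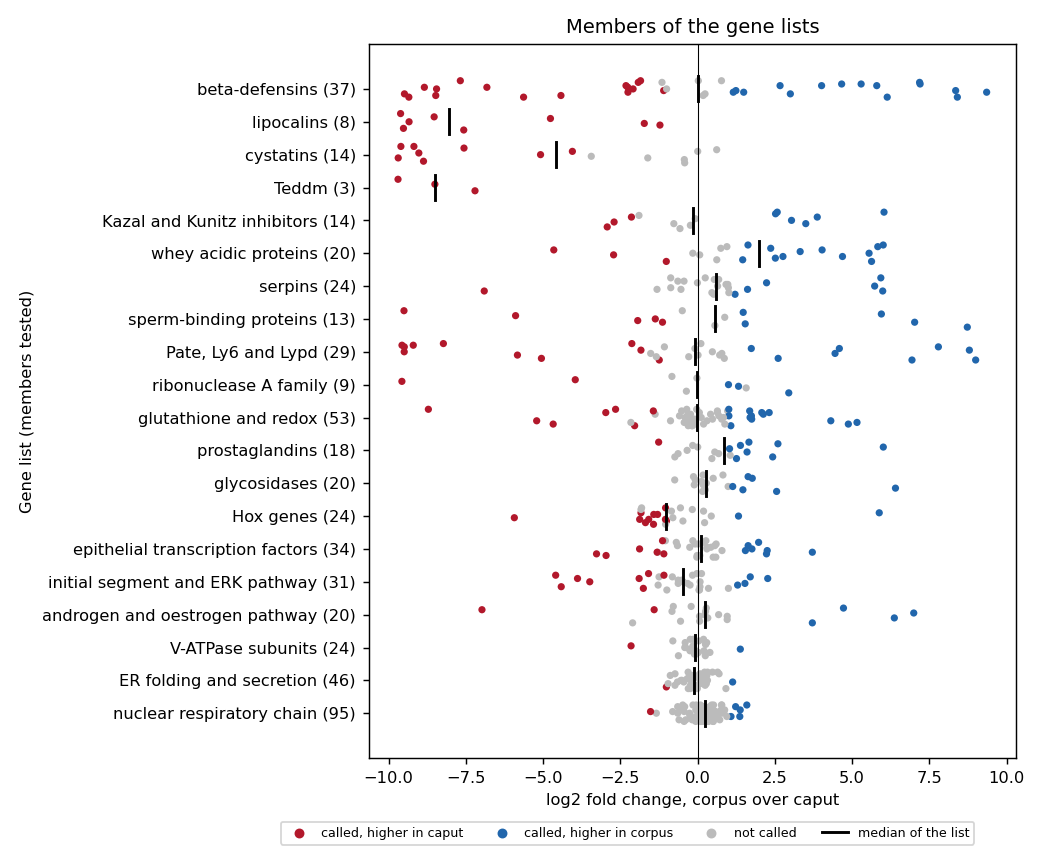
log2 fold change of the corpus over the caput for each tested member of 20 gene lists, with members called higher in the caput in red, in the corpus in blue and not called in grey, and a black bar at the median of the list. All lipocalins lie on the left, the beta-defensins spread from -9.49 to 9.36 around a median of 0.02, and most subunits of the V-ATPase and genes of the secretory pathway are not called.

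Many of these genes sit in clusters on the chromosomes. Positions were taken from the GENCODE annotation of GRCm38, the genome build of the counts, and the clusters were picked after the values were seen. All 7 tested lipocalin genes between positions 25490845 and 25825537 of chromosome 2 were called in the caput, and 4 of the 7 without P56 pool 1. The 4 Pate genes that were placed on chromosome 9 (35570284 to 35690318) were all called in the corpus. Their log2 fold changes were 4.59 for Pate2, 4.45 for Pate4, 9.0 for Pate3 and 8.80 for Pate1. The other 4 tested Pate genes, Pate5, Pate6, Pate10 and Pate13, were called in the caput (-9.49, -5.05, -8.23 and -5.83). No position was obtained for them here. It is therefore not known from these values whether the whole Pate cluster changed in 1 direction. The large cluster on chromosome 2 holds mainly whey acidic protein and Kunitz inhibitor genes. It had 13 of 19 members called in the corpus and 2 in the caput, and 7 and 1 without P56 pool 1. The seminal vesicle secretory genes Svs4 and Svs6, both low, are among the members called in the corpus. Over all genes 11.1% were called in the corpus and 9.7% in the caput, so that the share of this cluster in the caput was near that of all genes.

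The beta-defensin clusters on chromosomes 2, 8 and 14 held members of both directions, partly in runs. On chromosome 1 the neighbours Defb18 and Defb41 were both called in the caput (-8.45 and -8.47). The cluster on chromosome 2, with 11 tested genes, had 4 called in the corpus and 6 in the caput, beside 11.1% and 9.7% of all genes. Along the chromosome the log2 fold changes were 2.67 for Defb23, -6.82 for Defb20, 9.36 for Defb22, 8.35 for Defb26 and 5.29 for Defb28, followed by 0.18 for Defb29, which was not called. The remaining members, Defb21, Defb19, Defb45, Defb36 and Defb25, were all lower in the corpus (-1.85, -1.92, -9.49, -2.25 and -9.34). Of the members on chromosomes 2 and 8 that are named here, Defb21, Defb39 and Defb34 were not called without P56 pool 1. The genes Defb20 and Defb22, both with promoters printed above, are separated by 5.7 kb. On chromosome 8 the genes Defb40, Defb37, Defb38 and Defb39 were called in the corpus, and their neighbours Defb12, Defb34 and Spag11b in the caput. Over the genome, 976 pairs of adjacent called genes lay within 50 kb, of which 769 (78.8%) had the same direction and 207 opposite directions. Pairs that overlapped, or that had uncalled genes between them, were included. Of all called genes 53.3% were higher in the corpus, and the share of pairs in the same direction without regard to position was not computed.

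**Figure D4:**
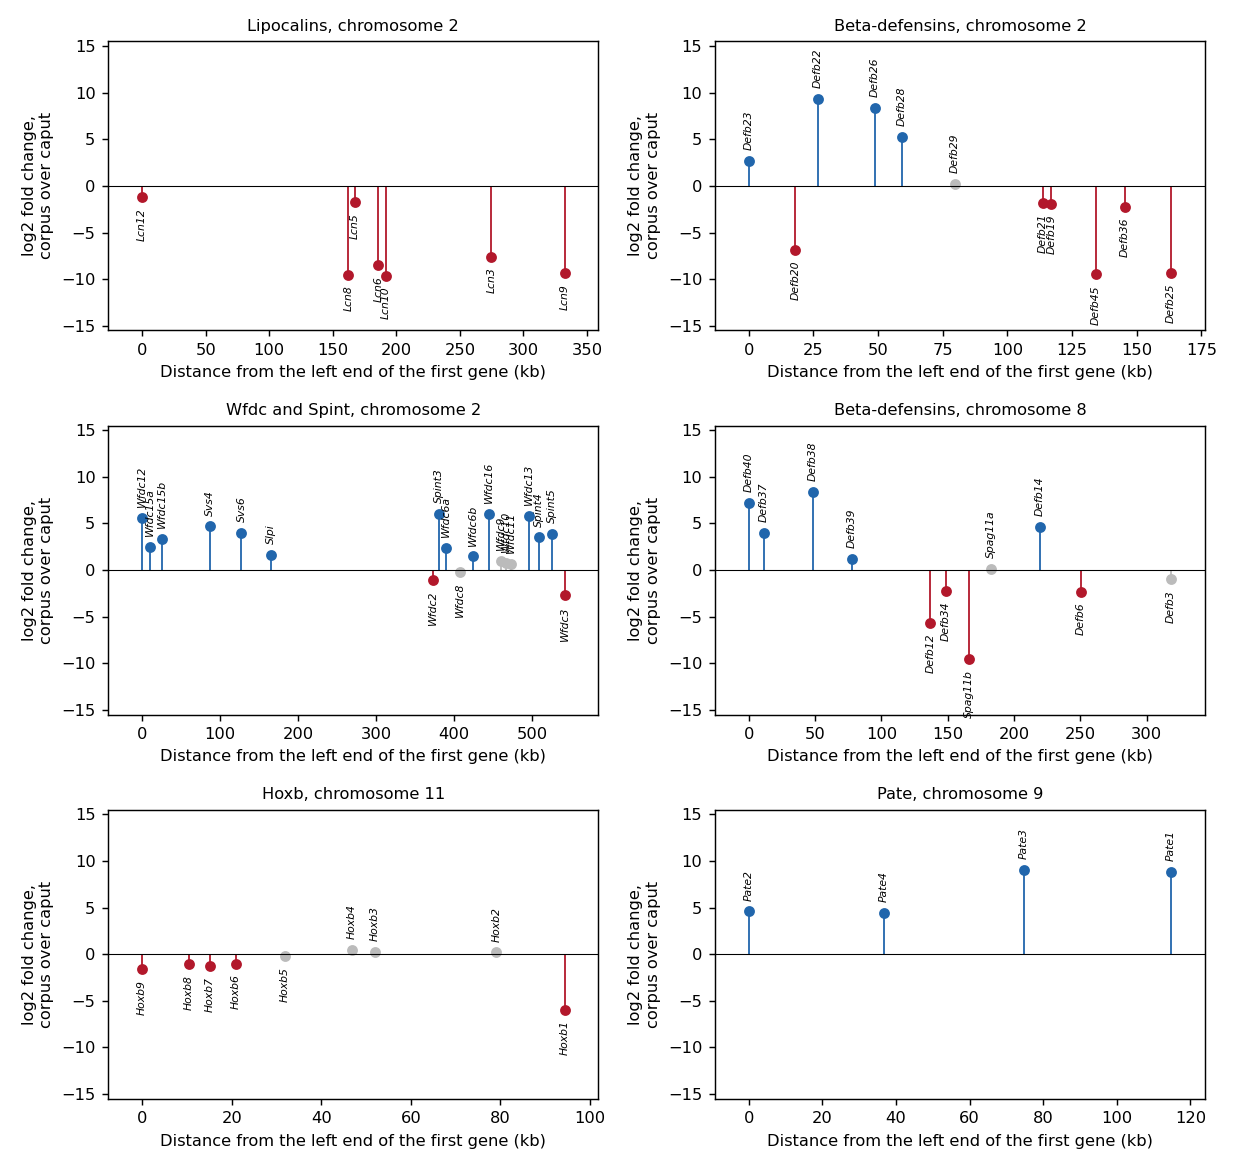
log2 fold change of the corpus over the caput against the distance from the left end of the first gene, in kb, for the tested members of 6 gene clusters, in red where called higher in the caput, in blue in the corpus and in grey where not called. The lipocalins and the 4 Pate genes that were placed each lie on 1 side of 0. In the beta-defensin cluster of chromosome 2 Defb20 (-6.82) stands between Defb23 (2.67) and Defb22 (9.36).

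Hox genes were mostly called on the caput side or not called. Of 24 Hox genes tested, which set position along the body axis, 11 were called in the caput and 2 in the corpus (median -1.04). Over all genes 9.7% were called in the caput and 11.1% in the corpus, so that the share in the corpus was near that of all genes. Hoxb7 had 277, 530 and 457 CPM in the caput and 118, 201 and 191 CPM in the corpus (-1.29, SE 0.127, adjusted p = 0.00174). Hoxb9 and Hoxb8 lie before Hoxb7 in its cluster and were also called in the caput (-1.58 and -1.04), Hoxb8 not without P56 pool 1. Hoxb1, at the other end of the same cluster, dropped from 17.1, 28.5 and 23.1 CPM to 0.431, 0.32 and 0.329 CPM (-5.93). Between Hoxb7 and Hoxb1, Hoxb6 was called in the caput at the threshold of size (-1.01), though not without the P42 pool or without P56 pool 1. Hoxb5, Hoxb4, Hoxb3 and Hoxb2 were not called (-0.17 to 0.44). The 2 called in the corpus, Hoxc10 and Hoxc9, were in the Hoxc cluster. Hoxc10 was at 0, 0 and 0.125 CPM in the caput and at 7.61, 0.693 and 1.7 CPM in the corpus, and Hoxc9 had 7.37, 2.15 and 2.66 CPM against 21.6, 5.71 and 5.27 CPM, with overlapping segments. Both were highest in the P42 corpus, the library with the most fibroblast RNA as described below, and neither was called without P56 pool 1, which left 7 Hox genes called in the caput and none in the corpus. With barcodes rich in non-epithelial markers left out, 12 were called in the caput and none in the corpus.

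Among 34 epithelial transcription factors 7 were called in the corpus and 6 in the caput, beside 11.1% and 9.7% of all genes. Tfap2b, of the AP-2 family, rose from 38.6, 55.9 and 71.4 CPM to 178, 332 and 269 CPM (2.23, SE 0.166, adjusted p = 0.000732). Sox9 fell from 133, 107 and 102 CPM to 37.8, 24.9 and 31.4 CPM (-1.88), and Runx1 from 60.9, 79.4 and 66.0 CPM to 15.3, 5.92 and 7.13 CPM (-2.96). Of the kinase pathway that testicular factors keep active in the initial segment, 8 of 31 tested genes were called in the caput and 4 in the corpus, the latter a share near that of all genes. Among the 4 was Egr1 (1.53), which was not called without P56 pool 1 or without P56 pool 2. The ETS factors Etv4, Etv5 and Etv1, which this pathway induces, were all lower in the corpus (-4.59, -4.41 and -3.49). Etv5 had 53.4, 53.5 and 34.6 CPM in the caput and 3.83, 1.44 and 1.65 CPM in the corpus (SE 0.292, adjusted p = 0.000512). The receptor tyrosine kinase Ros1, needed for the initial segment to form, fell from 22.1, 33.1 and 25.4 CPM to 1.44, 3.15 and 1.15 CPM (-3.89), and the feedback phosphatase Dusp6 fell by 1.89. Without P56 pool 1 the counts were 4 and 4 for the transcription factors and 2 in the corpus and 6 in the caput for the kinase pathway.

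Of the enzymes of the hormone pathways, Srd5a2, which makes dihydrotestosterone, fell from 148, 219 and 161 CPM to 38.4, 87.5 and 83.2 CPM (-1.41, adjusted p = 0.00628), and was not called without P56 pool 1. Cyp17a1, a steroid hydroxylase best known from the testis and adrenal, rose from 0.85, 1.58 and 1.69 CPM to 49.0, 154 and 159 CPM (6.37, SE 0.208, adjusted p = 8.55e-05), and the oestrogen sulphotransferase Sult1e1 rose from 22.2, 6.44 and 8.06 CPM to 276, 280 and 282 CPM (4.72). In all, 4 of 20 genes of this list were called in the corpus and 2 in the caput, beside 11.1% and 9.7% of all genes, and without P56 pool 1 2 in each.

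Of 22 ion channels and exchangers 6 were called in the corpus and 5 in the caput, of 26 tight junction genes 4 and 5, and of 7 carbonic anhydrases 2 and 1, beside 20.8% called over all genes. Leaving out P56 pool 1, the tight junction counts were 1 and 4 and those of the carbonic anhydrases 1 and 1, and without P56 pool 2 the tight junction counts were 2 and 4. Of 24 subunits and associated proteins of the V-ATPase, the proton pump of clear cells, 22 were not called. The clear cell subunit Atp6v1g3 had 554, 582 and 776 CPM in the caput and 548, 551 and 614 CPM in the corpus with overlapping segments (-0.14, SE 0.147, adjusted p = 0.492). Car4, a membrane-bound carbonic anhydrase, rose from 3.94, 3.2 and 5.56 CPM to 326, 690 and 637 CPM (6.97, SE 0.334, adjusted p = 0.000206). The chloride channel gene Cftr fell from 11.1, 19.4 and 14.2 CPM to 0.191, 0.213 and 0.329 CPM (-5.89). Of the claudins, which seal the epithelium, Cldn2 fell from 148, 187 and 121 CPM to 0.909, 2.51 and 0.713 CPM (-6.88) and Cldn10 by 3.42, while Cldn3 (1.0) was called by edgeR and not by DESeq2, nor without P56 pool 1 or P56 pool 2. The amino acid transporter Slc38a5 fell from 1307, 1511 and 913 CPM to 13.0, 12.5 and 2.19 CPM (-7.32).

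Among metabolic genes, the lists of prostaglandin genes and of glycosidases had more members called in the corpus than in the caput. In the list of glutathione and redox genes, 13 of 53 were called in the corpus and 7 in the caput (median -0.03), beside 11.1% and 9.7% of all genes. The glutathione transferases Gstm1 and Gstm7 rose by 1.74 and 2.08 on the log2 scale, with Gstm7 at 310, 380 and 333 CPM in the caput and 1019, 1635 and 1769 CPM in the corpus. Members of the Gstm family are close copies, so their reads may be divided uncertainly. Of 18 prostaglandin genes, 8 were called in the corpus and 1 in the caput. Ptgds, which makes prostaglandin D and carries lipids in the lumen, rose from 433, 833 and 640 CPM to 1492, 4599 and 7578 CPM (2.60, SE 0.382, adjusted p = 0.00605) but was not called without P56 pool 1, and Hpgd, which degrades prostaglandins, rose by 2.43. Glycosidases trim sugars of the sperm surface. Of 20 genes in their list, which includes the sulphatase genes Arsa and Ids, 6 were called in the corpus and none in the caput. Man2b1, a mannosidase, rose from 45.1, 28.0 and 27.7 CPM to 158, 225 and 201 CPM (2.56). With P56 pool 1 left out, 4 prostaglandin genes and 2 genes of the glycosidase list were called in the corpus, and 11 redox genes in the corpus and 4 in the caput.

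Few genes of the general machinery of the cell were called, beside 20.8% of all genes. Of 46 genes for protein folding and secretion in the endoplasmic reticulum 1 was called in each segment (median -0.13), of 95 nuclear genes of the respiratory chain 5 in the corpus and 1 in the caput (median 0.23), and of 87 ribosomal protein genes 2 in the corpus (median 0.43). With the P42 pool left out these counts were 3 and 0, 6 and 2, and 6 and 2, and with P56 pool 1 left out 0 and 0, 5 and 0, and 1 and 0. Leaving out P56 pool 2 gave 1 and 2 for the endoplasmic reticulum list and 4 and 0 for the respiratory chain. The chaperone Hspa5 had 2099, 2670 and 2356 CPM in the caput and 1664, 3738 and 3946 CPM in the corpus (0.30, adjusted p = 0.424). The called respiratory gene Cox6c had 1007, 1279 and 1046 CPM against 1694, 2902 and 2597 CPM (1.08, adjusted p = 0.0112), and was not called without P56 pool 1 or without P56 pool 2. The share of mitochondrial UMIs given above was higher in the corpus in 3 of 3 pools.

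Some transcript of the strongest genes was counted in the other segment as well. The size of this remainder is limited by the choice of the genes, and it differed between them. Over 27 genes with at least 1000 CPM in the caput and a log2 fold change of -6 or lower, the median level in the corpus was 0.297%, 0.212% and 0.0823% of the level in the caput of the same pool. It ranged from 0.157% to 1.78% in P42 and from 0.0523% to 1.0% in P56 pool 2. Defb20 kept 0.799%, 0.866% and 1.0%, the last being the highest of the 27 in P56 pool 2, while Adgrg2, a receptor of the efferent ducts and the caput, kept the most in P42. In the other direction, 9 corpus genes reached medians of 0.63%, 0.334% and 0.385% of their corpus level in the caput. At the level of barcodes Gpx5 UMIs were found in 100% of the kept caput barcodes, and in all 245 caput barcodes with at least 3 UMIs of T and natural killer cell markers, a cell type that should lack it (median depth 6861 to 7686 UMIs, against 5859 to 6451 over all kept barcodes). In the corpus 21.0%, 35.7% and 16.5% of barcodes had a Gpx5 UMI, against 20.3%, 37.1% and 8.93% of the barcodes with T cell markers, which had medians of 3377, 4010 and 5714 UMIs beside 3485, 4502 and 4927 over all kept barcodes. The T cell share of P56 pool 2 rests on 5 of 56 barcodes. No expression in the corpus is read from these shares, and the part of free RNA and of doublets in them was not tested.

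Markers of other cell types differed between the libraries as well. Fibroblast markers summed to 2990, 1202 and 1217 CPM in the caput and to 8125, 1196 and 1066 CPM in the corpus. Of these markers 5 of 10 were called in the corpus and 2 in the caput, beside 11.1% and 9.7% of all genes. The collagen gene Col1a2, which is one of the 5 (1.15), had 615, 91.2 and 86.9 CPM against 2180, 187 and 130 CPM, so that it was higher in the corpus of each pool although the segments overlapped. It was not called without the P42 pool, without P56 pool 1, without the block or with barcodes rich in non-epithelial markers left out. Macrophage markers were at 1338 CPM in the P42 corpus and at 278 to 493 CPM in the other 5 libraries, and T and natural killer cell markers at 211 CPM there and at 35.1 to 61.1 CPM elsewhere. The P42 corpus library held more RNA of fibroblast, macrophage and T cell markers than the other libraries, but less of B cell markers than the P56 corpus libraries. Its share of kept barcodes with less than 1% of UMIs from non-epithelial markers was 72.2%. The part of this in the results was not tested, but with all barcodes above that limit left out, 4040 genes were called, 3443 of them among the 3647.

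The counts of called markers below stand beside 11.1% of all genes called in the corpus and 9.7% in the caput. B cell markers rose towards the corpus, with 3 of 4 tested called and sums of 11.9, 5.39 and 10.4 CPM against 51.8, 294 and 159 CPM. Of the defining markers, Cd79a was too low to test. The immunoglobulin gene Igkc had 4.03, 1.09 and 2.72 CPM in the caput and 17.3, 195 and 126 CPM in the corpus (4.97, adjusted p = 0.0203) and was not called without P56 pool 1 or without P56 pool 2. Ciliated cell markers fell from 143, 71.1 and 153 CPM to 30.2, 45.4 and 53.6 CPM, with 6 of 10 called in the caput. Myoid cell markers summed to 1525, 2331 and 1803 CPM in the caput and 181, 118 and 90.5 CPM in the corpus, but most of this was Actg2, the smooth muscle gamma-actin, with 1172, 2155 and 1692 CPM against 6.22, 4.85 and 3.95 CPM (-8.35). Acta2, another smooth muscle actin, had 205, 85.3 and 57.2 CPM and 82.8, 55 and 38.6 CPM and was not called (-0.84). Markers of clear and narrow cells were at 1332 to 1780 CPM and 1445 to 1949 CPM, so that the segments overlapped, and 2 of 8 were called in the corpus. Sperm markers were at 140, 301 and 1312 CPM in the caput and 881, 562 and 549 CPM in the corpus, and the only called gene was higher in the corpus. Basal cell markers lay at 259 to 419 CPM in the caput and 238 to 290 CPM in the corpus, with 3 of 9 called in the caput, among them Krt5 (-1.15), whose segments overlapped and which was not called without P56 pool 1, without P56 pool 2 or without the block. Endothelial markers were at 332, 62.1 and 94.1 CPM and at 111, 77.3 and 51.9 CPM, with 4 of 8 called in the caput. Testis markers lay between 96.0 and 195 CPM in all 6 libraries, and Amh, Insl3 and Hsd3b1 were too low to test. Of the 4 tested, Cyp17a1 was called in the corpus (6.37) and Sox9 in the caput (-1.88). The sum thus joins opposite changes, and no amount of testis material is read from it.

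**Figure D5:**
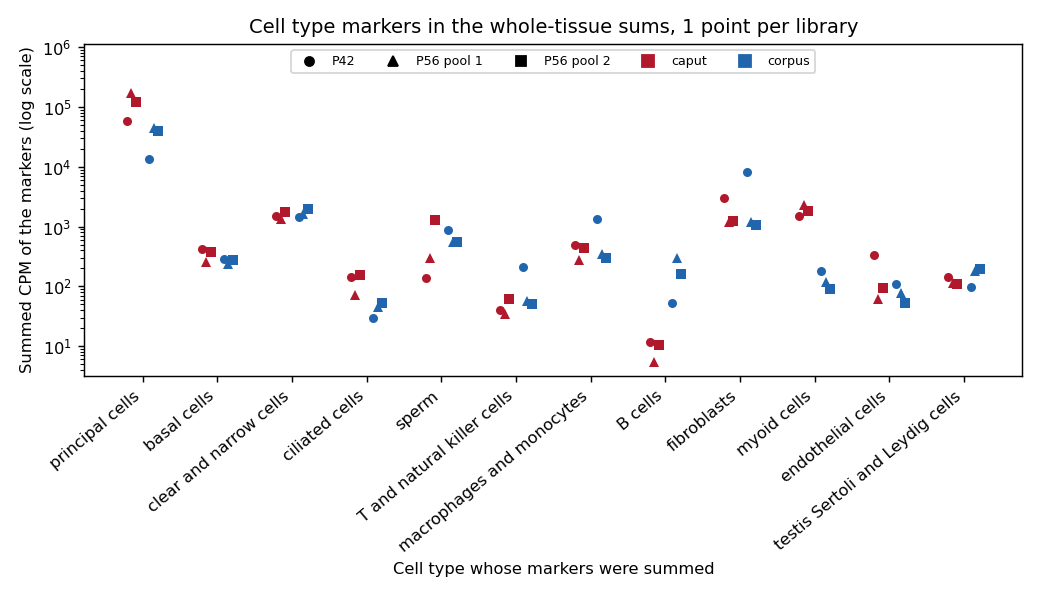
Summed CPM of the markers of 12 cell types on a log scale, with 1 point per library, caput in red, corpus in blue, and circles, triangles and squares for the P42 pool, P56 pool 1 and P56 pool 2. The fibroblast and macrophage sums of the P42 corpus, 8125 and 1338 CPM, stand above those of the other libraries. The principal cell sum is higher in the caput of every pool, although of its 12 markers 7 were called in the caput and 4 in the corpus. Most of the principal cell sum in the caput came from Gpx5, Defb20 and Lcn8, all called in the caput. No amount of principal cells is read from it.

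Cauda libraries of the same pools, which were not in the comparison, show how far along the duct each level went. All 19 genes with the largest changes on the caput side were below 1% of their caput level in the cauda. Of the 22 on the corpus side, 9 had a higher mean in the cauda than in the corpus, among them Cd52 with 8161, 63231 and 60011 CPM, and 4 were under 10% of the corpus level. All 9 were higher in the cauda of both P56 pools, but at P42 only Defb40 was. The P42 cauda library stood apart, with a fibroblast marker sum of 42531 CPM against 2970 and 1815 CPM in the P56 cauda, and 10.7% of its barcodes under the limit on non-epithelial markers. The 4 low genes were Defb22, Defb26, Gm34646 and Wfdc13. Defb22 had 3.69, 52.3 and 3.08 CPM in the cauda and Wfdc13 108, 809 and 478 CPM, so that both had their highest levels in the corpus of each pool.

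Whether the difference between the segments depended on age was tested as an interaction in the same model, with 1 pool at P42 that is assumed to vary like the P56 pools. Of 17574 genes 72 (0.41%) were called, and 2846 had an unadjusted p under 0.05. The difference was lower at P42 in 37 of the 72 and higher in 35. Of the 30 immediate early and stress genes tested, 7 were among the 72, which were Atf3, Dnajb1, Egr1, Fosb, Hspa1a, Hspa1b and Klf6, and no other list had more than 1. Between the segments 6 of these 30 genes were called in the corpus and 1 in the caput over all pools, beside 11.1% and 9.7% of all genes. The counts were 18 and 1 without the P42 pool, 1 and 1 without P56 pool 1, 4 and 1 without P56 pool 2, and 11 and 1 by DESeq2. Atf3, a transcription factor induced by stress, had 751, 195 and 171 CPM in the caput and 778, 1534 and 2001 CPM in the corpus, so that it rose with the segment at P56 and not at P42 (difference of the log2 fold changes, P42 minus P56, -3.21, SE 0.359, adjusted p = 0.0334). The heat shock gene Hspa1b had 53.8, 19.8 and 16.1 CPM in the caput and 71.3, 103 and 107 CPM in the corpus (-2.15), and the immediate early gene Egr1 639, 150 and 149 CPM and 759, 669 and 653 CPM (-1.90). In these genes the P42 caput was the library that stood apart from the other caput libraries. Prrx1, a homeobox gene of mesenchymal cells, had 133, 196 and 143 CPM in the caput and 28.8, 5.33 and 4.55 CPM in the corpus (2.87, SE 0.233, adjusted p = 0.0249), where the P42 corpus stood apart. With TMM factors set to 1, or without the block, no gene was called (2031 and 2425 with an unadjusted p under 0.05), and DESeq2 called 247.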

How the data were processed

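Single-cell RNA-seq of dissociated caput, corpus and cauda was deposited by the authors as whole-number UMI counts per gene and barcode. Per the authors' methods, reads were trimmed with fastp, barcodes and UMIs were taken with UMI-tools, reads were aligned with STAR 2.7.3a to GRCm38.p6 and exonic reads were counted with featureCounts. Here the counts of the kept barcodes were summed per library, so that a library was the replicate. The 3 caput and 3 corpus sums were compared with edgeR 4.0.16 (R 4.3.3), using filterByExpr, TMM factors and a quasi-likelihood test with pool and segment as terms and 2 residual degrees of freedom. Each pool joined separate mice. A gene was called at an adjusted p under 0.05 and an absolute log2 fold change of at least 1, and the procedure was tested on simulated data. The labels give the caput and the corpus of a pool the same pool name. Their deviations from the segment means were correlated within pools (r = 0.51, 0.46 and 0.30) and between -0.50 and 0.32 across pools. Deviations from a mean of 3 libraries sum to 0, so lower values across pools are partly built in. The 0.32, of the P56 pool 1 caput with the P56 pool 2 corpus, was above the 0.30 within P56 pool 2. These values are no test of the pairing. Pools at 42 and 56 days were compared by an interaction term with 1 residual degree of freedom.

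Genes were named by a rule on size, level and list membership: the 12 largest called fold changes in each direction at a mean of at least 100 CPM, the 10 largest differences in CPM, up to 4 members of each list by level and up to 4 by fold change, up to 3 markers per cell type and 5 genes of the interaction. Members of gene clusters and a few other genes were named after their values were seen. Members and lists were chosen with earlier results of these data known. Alternatives were DESeq2 1.42.0, other scalings, filters on genes and barcodes, no block, all 9 libraries, thinned libraries and each pool left out. Promoters came from RefSeq (GRCm38.p6) and positions from GENCODE. Doublets were not called, since whole libraries were summed. A few genes are not reported here.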

Additional observations from a re-analysis of the deposited data

Results flagged for a closer look

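In 14 genes that the report follows the difference between corpus and caput itself differed between the P42 pool and the P56 pools by the interaction test of edgeR. Values are the log2 fold change at P42 minus that at P56. The difference was 3.68 for Tcea3, 2.87 for Prrx1, -2.76 for Sertad1, -2.85 for Csrnp1, -2.77 for Gdf15, -2.18 for Dnajb1, -2.15 for Hspa1b, -2.09 for Lrp2, -3.21 for Atf3, -2.07 for Hspa1a, -2.41 for Rnase1, -3.14 for Fosb, -2.30 for Klf6 and -1.90 for Egr1. Tcea3, a transcription elongation factor gene, had 16.7, 41.3 and 26 CPM in the caput and 11.9, 2.45 and 1.32 CPM in the corpus. Dnajb1, a heat shock cochaperone gene, had 96.9, 41.6 and 38.3 CPM in the caput and 132, 235 and 259 CPM in the corpus. There was 1 pool at P42, so that age and pool cannot be told apart.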

How the results depend on the processing

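Leaving out 1 pool gave between 1640 and 4911 called genes, 780 to 2356 higher in the corpus and 860 to 2555 higher in the caput. The fit with no replicate block called 2884 genes, 2858 of them among the 3647. For the age interaction DESeq2 called 247 genes, library size only 0 (2031 at an unadjusted p under 0.05) and no replicate block 0 (2425). Without the filter on low counts 4535 genes were called. Of 360 genes followed, 238 were called, 185 of them under every alternative that kept all pools and 152 under every alternative. Without P56 pool 1, 76 lost the call. No called gene changed sign, and 79 changes of sign were of genes called in neither fit. The cause of these changes was not tested. Depth limits genes below about 1 CPM, where a library holds few UMIs.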

Other observations

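Further gene groups are given beside the 20.8% of all genes called, 11.1% in the corpus and 9.7% in the caput. Of 273 solute carriers tested 45 were called in the corpus and 52 in the caput, and of 25 retinoid pathway genes 3 and 6. Crabp1, which binds retinoic acid in the cell, had no UMI in the corpus and was at least 40.4-fold higher in the caput by a floor of 3 counts over the corpus libraries. Of 8 aquaporins 4 were called in the corpus and 1 in the caput. Of 34 interferon-stimulated genes 4 and 1 were called, and of 39 cell cycle genes 5 and 2, shares in the corpus near that of all genes. Without P56 pool 1 the counts were 23 and 31 for solute carriers, 1 and 1 for aquaporins, 1 and 0 for interferon-stimulated genes and 3 and 0 for cell cycle genes. The cell cycle counts were 6 and 7 without the P42 pool and 5 and 1 without P56 pool 2, the interferon-stimulated counts 2 and 1 without P56 pool 2, and the aquaporin counts 4 and 0 without either of these pools.

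Some genes called in the caput had a higher level in 1 corpus library than in the others. Of 169 genes called in the caput with at least 100 CPM there, 8 had a corpus level in P56 pool 1 of over 3 times that of both other pools, against 2 in the P42 pool and 0 in P56 pool 2. These are levels in the corpus and not shares of the caput level, which for Cst12, among the 8, were 0.157%, 0.169% and 0.0605%. Chosen by these values, Defb15 had 21.0, 206 and 8.01 CPM in the corpus and Pate13 11.3, 139 and 8.83 CPM.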
